A study of Cricetulus griseus and Cricetulus griseus
Mus musculus and Mus musculus with 202 samples.

Results

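The type I interferon response genes were followed through an expression panel of mouse-hamster radiation hybrid cells. Membership was by name: 49 genes were listed for their induction by interferon or for their place in its signalling, and a gene was used where a feature of the array carried its single symbol. This gave 45 measured genes on 46 features, of 16504 genes and 20868 features in all. Parp14 had 2 features, and 44 genes had 1. Oas1a, Dtx3l, Ifi44 and Ifi27 had no such feature and were not analysed here.

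Each hybrid of the T31 panel is a Chinese hamster cell line that carries random fragments of the mouse genome beside its complete hamster genome. The recipient, A23, is a hamster line that lacks thymidine kinase. Of the panel, 99 lines were compared with A23 on 2 arrays each, replicate 1 with the hybrid in Cy3 and A23 in Cy5, replicate 2 with the dyes exchanged. Whole brain and whole liver of mouse were each set against the hamster organ, again on 2 arrays per tissue with exchanged dyes. The labels name no interferon treatment, animal, strain, sex or age. Each line is 1 clone, A23 was on all 198 hybrid arrays and was never compared with itself, and the 2 arrays of a line are called biological replicas in the labels. Where nothing says that they came from separate cultures or animals, the spread behind the p-values is that between these arrays alone and may be technical. The values are ratios without intensities, so a level of a gene in one RNA, and the presence of defining markers of brain, liver or the cell lines, could not be checked. Gene names and probes are of mouse. A higher ratio from an added mouse copy, from the hamster gene, or from mouse RNA that binds a mouse probe better cannot be told apart.

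Type I interferon binds the receptor pair IFNAR1 and IFNAR2, whose bound kinases TYK2 and JAK1 phosphorylate STAT2. STAT2 and IRF9 are subunits of the factor ISGF3, which switches on interferon-stimulated genes. The proteins of those genes sense viral RNA, block viral entry at membranes, stop translation or cut RNA. ISG15, a ubiquitin-like protein, is attached to targets by a cascade that starts with UBA7 and is removed by USP18. In cells that have met no interferon most of these genes are expressed at a low basal level.

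Within a dye orientation, pairs of arrays had a median correlation over genes of 0.23 (replicate 1) and 0.24 (replicate 2), and the lowest were -0.71 and -0.38. Pairs under -0.3 made up 0.825% of the pairs of replicate 1 and 0.0412% of those of replicate 2. The direction of each ratio was kept because the labels state the dyes of every array. Replicate 1 of line 23 stood apart, with a median r of -0.25 against the other arrays of its orientation, and r under -0.3 with 35 of them. Replicate 1 of line 42 had the widest spread of the hybrid arrays (SD 2.37 on the log2 scale, against a median array SD of 0.84). The 17 interferon genes called for the panel and the 6 called between lines were the same without line 23 and without line 42. Across genes the mean ratios of the orientations correlated at r = -0.23, and 61.3% of all genes had opposite signs in them. Among the interferon genes, 24 of 45 did. Values of both orientations are therefore given for the genes called in the panel. Where replicate 1 had the hybrid at its highest, the deposited log10 floor of -2 capped the log2 ratio at 6.64.

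The first comparison asked whether the hybrids as a panel express interferon genes above or below the recipient. Ifitm3, which blocks the entry of enveloped viruses from endosomes, was highest. Ifi35, the interferon-induced leucine zipper protein, the guanylate-binding GTPase Gbp2, and Ifit2 and Ifit1, whose products bind viral RNA or halt translation, were also higher. Ifitm1, the transcription factor Irf1, Slfn4 of the schlafen family, tetherin (Bst2), which holds budding virions at the cell surface, and Isg15 were lower. In all, 9 interferon genes were higher and 8 lower than A23 by limma, with an adjusted p under 0.05 (Benjamini-Hochberg over all genes) and a log2 mean at least 0.2 from 0. Over all genes 19.5% were called higher and 11.4% lower. The median of the 45 genes was 0.03, beside 0.01 for all genes, so the set as a whole lay near the middle of the array.

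**Figure D1:**
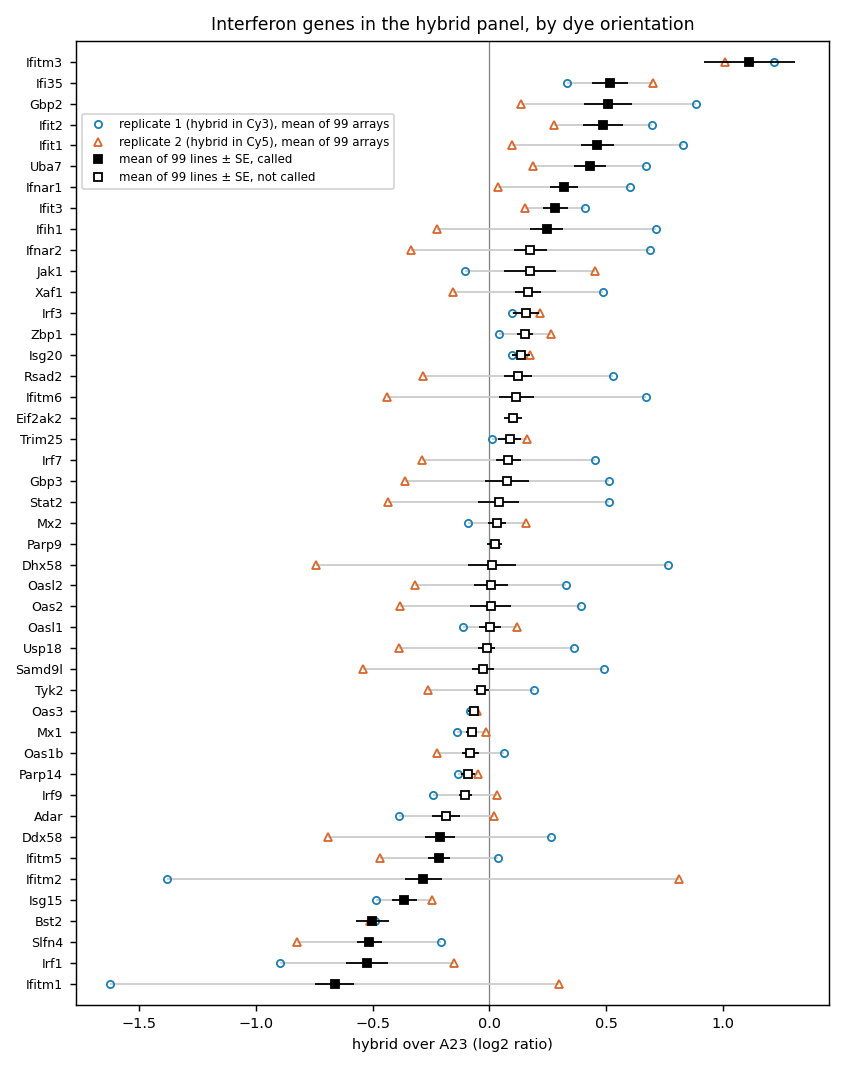
The horizontal axis gives the log2 ratio of hybrid over A23 for the 45 interferon genes, with squares for the mean of 99 lines ± SE (filled where called) and coloured symbols for the mean of each dye orientation. Ifitm3 lies far to the right at 1.11, and Ifitm2 and Ifitm1 have orientation means on opposite sides of 0.

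The call depended on dye orientation for most of the list. In replicate 1 alone 22 of the 45 genes were called higher and 8 lower, beside 36.9% and 24.8% of all genes. In replicate 2 alone 8 were higher and 19 lower, beside 22.3% and 26% of all genes. Called the same way in each orientation alone were 3 higher genes, Ifitm3, Ifit2 and Ifi35, and 3 lower genes, Bst2, Isg15 and Slfn4. Over all genes 6.08% were called higher and 3.26% lower in each orientation alone. The medians of the interferon genes were 0.19 in replicate 1 and -0.05 in replicate 2, beside 0.05 and -0.02 for all genes. Ifih1, Ddx58, Ifitm1, Ifitm2 and Ifitm5, 5 of the 17 called, changed sign between the orientations.

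Among receptors and kinases 1 of 4 was called. Ifnar1, the low-affinity receptor chain, had line means from -0.79 to 2.16 with a median of 0.24. Its mean was 0.32 ± 0.06 (SE, n = 99), 1.25-fold above A23, and it was above 0 in 71 lines (limma, adjusted p = 2.67e-06). Nearly all of that came from replicate 1, with a mean of 0.60 against 0.04 in replicate 2. Ifnar2, the high-affinity chain, averaged 0.18, under the size limit, with 0.69 and -0.34 in the orientations. Jak1, the kinase bound to Ifnar2, averaged 0.17 ± 0.11 with line means from -1.40 to 3.87 and a median of -0.12, and did not pass (limma, adjusted p = 0.181). Tyk2, the kinase bound to Ifnar1, averaged -0.04.

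Of the 5 transcription factors, Irf1 alone was called. Irf1, which drives interferon and major histocompatibility genes, had line means from -2.74 to 1.69 and a median of -0.50. It averaged -0.52 ± 0.09, 0.695-fold of A23, and was above 0 in 32 lines (limma, adjusted p = 5.5e-07). Its orientation means were -0.90 and -0.15. Stat2, the subunit of ISGF3 that is specific to type I and type III interferon, had line means from -3.32 to 3.71 with a median of 0.00. Its mean was 0.04 ± 0.09 (limma, adjusted p = 0.715), made of 0.51 in replicate 1 and -0.43 in replicate 2, and 34.3% of its array values were exactly 0. The lines thus lay on both sides of 0 for Stat2, and the orientations disagreed in sign. Irf9, its DNA-binding partner, averaged -0.10. Irf3 and Irf7, which turn on interferon genes after infection, averaged 0.16 and 0.08. None of these 4 reached the size limit of 0.2.

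Among the 4 sensors of nucleic acids, Ifih1 (MDA5, a sensor of long double-stranded RNA) averaged 0.25 ± 0.07 and was called higher, and Ddx58 (RIG-I, a sensor of short RNA ends) averaged -0.21 ± 0.07 and was called lower. Neither kept its sign: Ifih1 was at 0.71 and -0.22 in the orientations and Ddx58 at 0.27 and -0.69. Dhx58 (LGP2), which modulates both, averaged 0.01, with 68.2% of its array values at exactly 0. Zbp1, a sensor of Z-form nucleic acid, averaged 0.15, under the size limit.

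Of the 6 membrane proteins, 1 was higher and 4 were lower. Ifitm3 had line means from -1.19 to 7.17 with a median of 0.41. Its mean was 1.11 ± 0.20, 2.16-fold above A23, with 1.22 in replicate 1 and 1.01 in replicate 2, and 73 of 99 lines were above 0 (limma, adjusted p = 1.03e-06). The mean was well above the median because a minority of lines were very high. Ifitm1, which acts mainly at the cell surface, ran from -2.93 to 1.39 with a median of -0.64, averaged -0.66 ± 0.08 and was above 0 in 23 lines. Its mean of -1.62 in replicate 1 and 0.30 in replicate 2 had opposite signs. Ifitm2 did the same more strongly, with -1.38 and 0.81 around a mean of -0.28 ± 0.08. Ifitm5, which is known from bone-forming cells rather than from antiviral defence, averaged -0.21 ± 0.05, with 0.04 and -0.47. Ifitm6 averaged 0.12 and was not called. Bst2 was lower in both orientations, at -0.49 and -0.51, with a mean of -0.50 ± 0.07, line means from -3.16 to 0.93 and 25 lines above 0 (limma, adjusted p = 2.66e-09).

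The 11 effectors that act on RNA held 3 higher genes and 0 lower. All 3 were Ifit genes. Ifit2 averaged 0.49 ± 0.08 with 0.70 and 0.28 in the orientations, and 70 lines were above 0 (limma, adjusted p = 6.87e-07). Ifit1 averaged 0.46 ± 0.07 with 0.83 and 0.10, but 34.3% of its array values were exactly 0 and its replicate 2 median was 0. Ifit3, which stabilises Ifit1 on RNA in the human complex, averaged 0.28 ± 0.05 with 0.41 and 0.15. The other 8 did not pass both limits. These were the kinase Eif2ak2 (PKR), the RNA editor Adar, the exonuclease Isg20 and the Oas and Oasl genes, which make or resemble enzymes that make the activator of RNase L. Their means lay between -0.18 for Adar and 0.14 for Isg20.

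Among the 4 induced GTPases, Gbp2 was called. Its line means ran from -2.15 to 5.17 with a median of 0.14, and its mean was 0.51 ± 0.10 with 0.88 in replicate 1 and 0.13 in replicate 2 (limma, adjusted p = 1.82e-05). Gbp3 averaged 0.08, Mx1 -0.08 and Mx2 0.03, which are GTPases of the same induced families. Of the 6 genes of the ISG15 pathway and the interferon-induced PARPs, Uba7 was higher and Isg15 lower. Uba7 averaged 0.43 ± 0.07 with 0.67 and 0.19, and 73 lines were above 0. Isg15 averaged -0.36 ± 0.05 with -0.48 and -0.25, line means from -2.34 to 0.67, and 20 lines above 0 (limma, adjusted p = 1.44e-08). The E1 enzyme and its substrate thus stood on opposite sides of A23, and the protease Usp18 was at -0.01. Trim25, which ubiquitinates RIG-I in human cells, was at 0.09, Parp9 at 0.02 and Parp14 at -0.09.

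Of the 5 remaining genes, Ifi35 was higher and Slfn4 lower. Ifi35 ran from -3.27 to 2.83 with a median of 0.45 and averaged 0.52 ± 0.08, with 0.33 and 0.70 in the orientations and 79 lines above 0 (limma, adjusted p = 2.46e-08). Slfn4, known from myeloid cells of mouse, ran from -1.78 to 2.89 with a median of -0.56 and averaged -0.51 ± 0.05, with -0.21 and -0.82. Only 7 of 99 lines were above 0, the fewest among the 45 genes (limma, adjusted p = 5e-14). Rsad2 (viperin), Xaf1 and Samd9l lay between -0.03 and 0.17 and were not called.

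Of 90 other genes listed for the same pathways, 73 were measured. Of these 11 were called higher and 8 lower, beside 19.5% and 11.4% of all genes. B2m, the light chain of class I major histocompatibility molecules, averaged 1.45 ± 0.25 (1.67 and 1.23 in the orientations). In 14 arrays of replicate 1 B2m was at the cap of 6.64, so its mean is a lower bound, and 32.3% of its array values were exactly 0. Lgals3bp, a secreted galectin-binding glycoprotein, averaged 1.21 ± 0.06 (1.06 and 1.36). Trim21, a cytosolic antibody receptor, averaged 0.52 (0.67 and 0.37), and the interferon-gamma receptor chain Ifngr1 0.47 (0.65 and 0.28). The scramblase Plscr1 averaged 0.49, but with 1.02 in replicate 1 and -0.04 in replicate 2. The lowest were the peptide transporter subunit Tap2 at -0.47 (-0.12 and -0.82), the kinase Jak2 at -0.45 (-0.71 and -0.19) and the ISG15 ligase Herc6 at -0.38. Herc6 had orientation means of opposite sign, 0.41 and -1.17, as did the GTPase Iigp1, whose mean of -0.29 was made of 0.02 and -0.59. Exact zeros made up 65.7% of the Herc6 values and 52.5% of the Plscr1 values, and each had 5 arrays at the deposited floor. The factor Irf8 averaged -0.28 (-0.32 and -0.24). Called in each orientation alone were Ifngr1, Trim21, Lgals3bp and B2m as higher, and Irf8 and Apobec3, an editor of viral DNA, as lower. That was so for 6.08% of all genes as higher and 3.26% as lower. The median of the 73 was 0.00.

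The second comparison asked which interferon genes differ from one hybrid line to another. Ifitm3 stood out by far, with a group of lines in which both arrays gave ratios many-fold above A23 while most lines stayed near it. Jak1, Gbp2, Ifnar1, Oasl1 and Ifi35 also differed between lines. In total 6 of 45 interferon genes passed (limma F test over 198 arrays with dye orientation as a term, adjusted p under 0.05). Over all genes 8.88% passed. Without dye orientation as a replicate block 2 of the 6 passed, Ifitm3 and Jak1. In the 28 lines whose second array correlated best with their own first array, 12 interferon genes passed. Those lines were chosen for the agreement of their arrays, which the F test also measures. The share of all genes that passed there is not given, so the rise is no result about interferon genes. The median intraclass correlation, the share of a gene's spread that the arrays of a line have in common, was 0.09 for the interferon genes and 0.04 for all genes.

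For Ifitm3 the intraclass correlation was 0.78 and its F statistic ranked 5 among 16504 genes (F = 8.34, adjusted p = 1.1e-19). Line 14 was the highest, with 6.64 and 7.69 in its arrays, followed by line 73 with 6.64 and 7.10 and line 20 with 6.64 and 6.63. Line 94 gave 5.95 and 7.27, and line 2 gave 5.22 and 6.76. In 4 arrays of replicate 1 the ratio was at the cap of 6.64, so those line means are lower bounds. Of the 99 lines, 28 had a mean above 1, 17 above 2 and 12 above 4, while 69 lay within 1 of A23. Both arrays were above 1 in 20 lines. Over all genes and lines both arrays were above 1 in 1.71% of the cases and both below -1 in 0.868%. The lowest were line 41, with -1.15 and -1.24, and line 21, with -0.91 and -1.19.

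**Figure D2:**
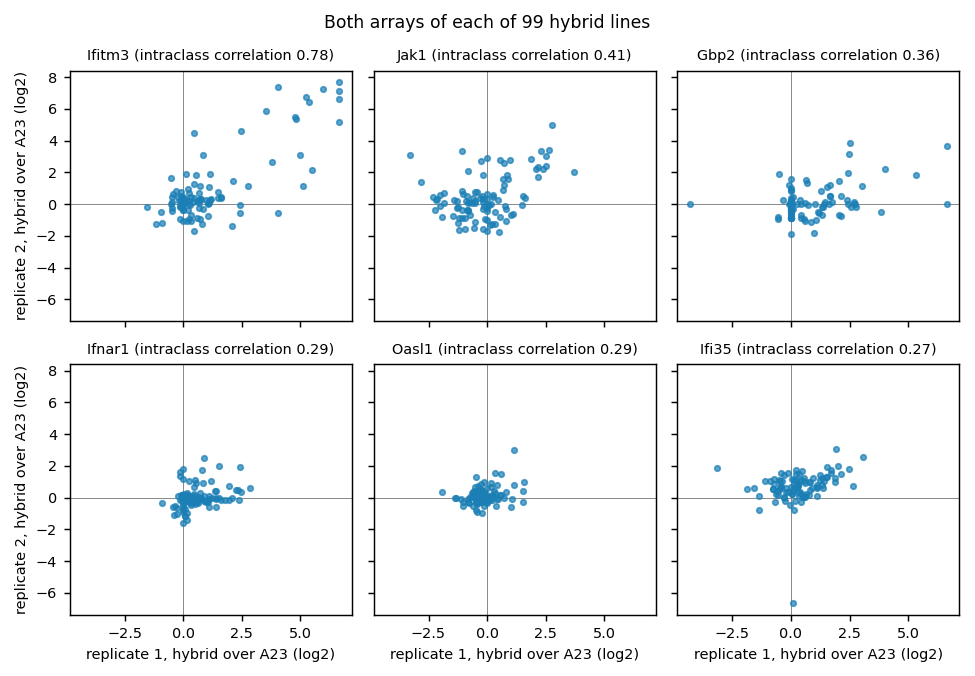
Each panel plots the log2 ratio of hybrid over A23 in replicate 2 against that in replicate 1, with 1 point for each of 99 lines, for the 6 interferon genes called between lines. For Ifitm3, 12 lines with means above 4 lie towards the upper right, whereas the other genes form a cloud around 0 with a smaller set of lines high in both arrays.

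Jak1 had an intraclass correlation of 0.41 (limma F test, adjusted p = 1.46e-04), although its panel mean was not called. Line 22 was highest with 2.76 and 4.98, then line 16 with 2.66 and 3.41, and line 79 with 3.69 and 2.00. Both arrays were above 1 in 11 lines and both below -1 in 2, so lines lay on each side of the recipient. Gbp2 had an intraclass correlation of 0.36 (adjusted p = 0.00119) and 10 lines with both arrays above 1. Line 14, the highest for Ifitm3, was also highest for Gbp2 with 6.64 and 3.69, followed by line 68 with 5.34 and 1.83. Replicate 1 of line 14 had a wide spread over genes, with an SD of 1.96 against a median array SD of 0.84. In line 6 the arrays disagreed, at 6.64 and 0.00, and 28.8% of the Gbp2 values were exactly 0. With exact zeros treated as missing Gbp2 was not tested, and Ifnar2 was called (limma F test, adjusted p = 0.00849).

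Ifi35 had the second largest number of lines with both arrays above 1, at 16, but an intraclass correlation of 0.27 (adjusted p = 0.0315). Line 80 was highest with 3.08 and 2.58, and line 29 followed with 1.92 and 3.05. Line 10 was lowest through a single array, with 0.11 in replicate 1 and -6.64, the floor, in replicate 2. Ifnar1 had an intraclass correlation of 0.29 (adjusted p = 0.0188), with line 20 highest at 2.41 and 1.91 and 3 lines with both arrays above 1. Oasl1, an Oas-like protein that dampens interferon production in mouse, had 0.29 (adjusted p = 0.0258). A single line had both Oasl1 arrays above 1, line 18 with 1.14 and 3.01. Stat2 was not called (intraclass correlation 0.09, adjusted p = 0.463). It had 1 line with both arrays above 1, and its highest line mean, in line 13, combined 6.64 with 0.78.

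Several genes with called panel means showed almost no agreement between the arrays of a line. The intraclass correlation was -0.003 for Ifit2, 0.001 for Slfn4, -0.01 for Irf1 and Bst2, and 0.06 for Ifit1 and Isg15. For these genes the panel means rest on all lines together, and the order of the lines was not measured beyond the spread between arrays. Among the other pathway genes 7 of 73 differed between lines, beside 8.88% of all genes. B2m came first at an intraclass correlation of 0.68 (limma F test, adjusted p = 2.63e-13), and its lines spanned -1.15 to 7.92 around a median of 0.29. Its line means that hold any of the 14 capped arrays are lower bounds, and 32.3% of its array values were exactly 0. Ifngr1 followed at 0.56, then the scramblases Plscr2 at 0.44 and Plscr1 at 0.35, Lgals3bp at 0.34, and Ifi204, a sensor of the p200 family, and the helicase Znfx1 at 0.26 each.

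The third comparison asked whether interferon genes that lie beside or near each other in the mouse genome vary together across lines, since neighbours tend to be kept on the same fragment. There were 32 such pairs: 15 among the Ifitm genes and Irf7, 10 among the Oas and Oasl genes, 3 among the Ifit genes, and 1 each for Mx, Ifnar, Gbp and Parp. Oas and Oasl genes were paired with each other although the Oas genes do not lie directly beside the Oasl genes. Over the 99 line means 4 pairs were called, all positive (two-sided permutation test, 100000 resamples, adjusted over the 32 pairs). Ifitm1 with Ifitm2 had the highest correlation, with Pearson r = 0.89 and Spearman rho = 0.89 (permutation adjusted p = 0.00032 for both, from the smallest p the resamples allow). Without the 2 lines farthest from the median r was 0.89. For every pair those 2 lines were chosen by the first named gene alone, so extreme lines of the second gene could remain. Ifnar1 with Ifnar2 had r = 0.42 and rho = 0.43 (permutation adjusted p = 6.4e-04 and 8e-04), and 0.46 without the 2 farthest lines.

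Ifit1 with Ifit2 had r = 0.28 and rho = 0.29 (permutation adjusted p = 0.0459 and 0.025), and 0.27 without the 2 farthest lines. For Ifit1 with Ifit3 r was 0.29 and rho 0.27 (permutation adjusted p = 0.0459 and 0.0353), and 0.29 without the 2 farthest lines. Both of these calls were lost without line 42 and without line 23, which left 2 pairs called in each case. By Spearman's rho 6 of the 32 pairs were called, 5 positive and 1 negative. Beside the 4 above these were Oas2 with Oasl2 (rho = 0.29, r = 0.21, permutation adjusted p = 0.025 and 0.125) and, as the negative pair, Ifitm1 with Irf7 (rho = -0.29, r = -0.24, permutation adjusted p = 0.025 and 0.0972).

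Genes measured on the same array share its errors, so the same pairs were also taken across the arrays of a line. With the first gene from replicate 1 and the second from replicate 2, or the other way round, 0 of 32 pairs were called by the permutation test, with 2 and 1 pairs at an unadjusted p under 0.05. The mean r across arrays fell to 0.13 for Ifitm1 with Ifitm2 and to 0.11 for Ifnar1 with Ifnar2. The arrays of a line agreed little for these genes. The intraclass correlation was 0.15 for Ifitm1, 0.08 for Ifitm2, 0.29 for Ifnar1 and 0.24 for Ifnar2. Such low agreement limits any r across arrays, so the fall and the lack of calls cannot decide whether neighbours vary together. For Ifitm1 with Ifitm2 the correlation within replicate 1 was 0.91 and within replicate 2 it was 0.82, against 0.08 and 0.17 between arrays. These genes are close paralogs, and whether their probes share signal on an array was not tested.

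**Figure D3:**
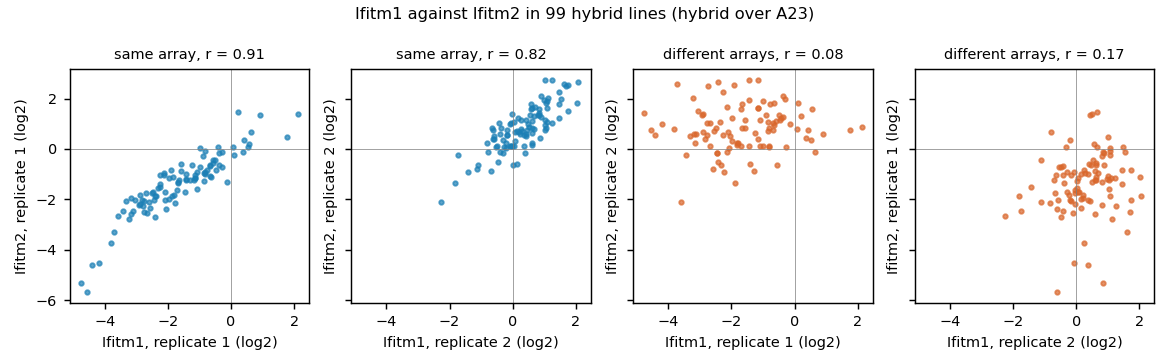
Log2 ratios of hybrid over A23 for Ifitm1 (horizontal) and Ifitm2 (vertical) in 99 lines, with both genes from the same array in the left pair of panels and from different arrays of the line in the right pair. The points follow a line within an array (r = 0.91 and 0.82) and scatter between arrays (r = 0.08 and 0.17).

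Ifitm3 was in no called pair with its neighbours. Its r over line means was 0.15 with Ifitm1, 0.17 with Ifitm2, 0.15 with Ifitm5, -0.02 with Ifitm6 and 0.02 with Irf7, and none of these 5 was called. Across arrays, however, its mean r was 0.14 with Ifitm1, 0.13 with Ifitm2 and 0.15 with Ifitm5, beside 0.13 for Ifitm1 with Ifitm2 and 0.11 for Ifnar1 with Ifnar2. Over all 44 pairs with other interferon genes, its r lay between -0.21 and 0.22. For Stat2 the 44 pairs lay between -0.25 and 0.37. Neighbour pairs had a median r of 0.05 and the 958 other pairs of interferon genes one of 0.02, or 0.04 and 0.00 across arrays. As a description, then, the measured line values of one interferon gene in general did not follow those of the rest. The median intraclass correlation of the interferon genes was 0.09, so most line levels were poorly reproduced between arrays. Whether the genes vary together across lines therefore cannot be decided from these medians.

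The genes whose line means were most like those of Ifitm3, of all genes, were Echs1, an enzyme of fatty acid oxidation (r = 0.71), the actin regulator Eps8l2 (0.69), the tetraspanin Cd81 (0.52) and the mitochondrial deacetylase Sirt3 (0.51). Wdhd1 (0.47), Chid1 (0.42), Cwc27 (0.42) and Nme4 (0.42) followed. Across arrays the values were 0.49 for Echs1, 0.51 for Eps8l2, 0.36 for Cd81, 0.32 for Sirt3 and 0.32 for Chid1, which were the 5 highest of the 8. As background, these 5 lie at the same end of the same mouse chromosome as Ifitm3, while the other 3 lie on other chromosomes. For Stat2 the most alike were Prim1 (r = 0.59), Hoxc12 (0.59), Siglec1 (0.56), Dnah17 (0.56), Mdga2 (0.55), Apol8 (0.54), Timeless (0.53) and Hand1 (0.53). Across arrays Timeless kept 0.25 and Prim1 0.14, both neighbours of Stat2 in mouse, and the other 6 lay between 0.00 and 0.11. The correlations are over 99 line means, which share the A23 reference and, within an array, its spread and its exact zeros.

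The fourth comparison set mouse against hamster tissue, that is, the RNA of whole organs on the same mouse probes. In such bulk samples fewer cells of a type and less RNA per cell cannot be told apart. In brain, the GTPase Gbp3, the receptor chain Ifnar2, Oasl2, Ifit1 and the factor Irf7 were higher in mouse, and Slfn4, the factor Irf3 and the ligase Trim25 were lower. In liver, Ifitm3 and Uba7 were higher in mouse, and Ifitm1 and Oasl1 lower. Brain had 5 interferon genes called higher and 3 lower, and liver 2 higher and 2 lower (limma on the 4 tissue arrays in 1 fit, with the thresholds used for the panel). Over all genes 10.1% were higher and 5.91% lower in brain, and 2.35% and 2.26% in liver. The medians of the interferon genes were 0.31 in brain and 0.37 in liver, beside 0.06 and 0.02 for all genes.

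The replicate number is the dye orientation in both tissues, so the same fit was made with it as a replicate block. With the replicate block brain had 11 higher and 4 lower interferon genes, beside 21.1% and 10.5% of all genes. Liver had 12 higher and 5 lower, beside 16.3% and 9.22%. All 8 brain calls and all 4 liver calls remained with it. The deposited tissue ratios of a feature had been scaled together to a median of 1 over the 4 arrays. This shifts the dye orientations of a tissue by equal and opposite amounts, which cancels in the mean, and the replicate block takes it up. Where the middle pair of the 4 ratios belonged to 1 tissue, the value of one of its arrays fixes that of the other. This held in liver for 7 of the 8 genes called in brain and in brain for all 4 genes called in liver. The spread behind the tissue p-values without the replicate block is thus set in part by the scaling. All 4 tissue arrays entered these calls. When any 1 array was left out, 1 tissue kept only 1 array, and the calls in either tissue were lost.

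In brain, Gbp3 gave 1.81 and 2.91 in its arrays, a mean of 2.36 ± 0.33 (SE, n = 2; limma, adjusted p = 0.0381). Ifnar2 gave 1.38 and 1.63, a mean of 1.51 ± 0.13 (limma, adjusted p = 0.0242). In liver Ifnar2 had a mean of 0.36, and the agreement of its arrays there is fixed by the scaling. Oasl2, an Oas-like gene that makes the RNase L activator in mouse, gave 1.20 and 1.67 in brain, and Ifit1 gave 1.29 and 1.27. Irf7 gave 1.14 and 0.84. All 5 were above 0 in both arrays. Slfn4 gave -4.51 and -6.64, the second at the floor, so its mean of -5.57 is an upper bound for the log2 ratio (limma, adjusted p = 0.0406). Irf3 gave -0.94 and -1.06, a mean of -0.999 ± 0.11, and Trim25 gave -1.13 and -0.73. With the replicate block Gbp2, Ifit3, Ifitm3, Ifnar1, Jak1 and Stat2 were called higher and Mx1 lower as well.

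In liver, Ifitm3 gave 6.64, at the cap, and 4.91, so its mean is at least 5.78 (limma, adjusted p = 0.0437). Its values in brain were 2.00 and 0.81, a mean of 1.41 ± 0.59 (adjusted p = 0.152, and 0.0175 with the replicate block). Uba7 gave 1.79 and 1.40 in liver, a mean of 1.60 ± 0.16 (limma, adjusted p = 0.0437). Ifitm1 gave -3.75 and -3.01 in liver, a mean of -3.38 ± 0.23 (adjusted p = 0.0356), against a mean of -0.20 in brain. Oasl1 gave -2.42 and -2.20 in liver, a mean of -2.31 ± 0.12 (adjusted p = 0.0296), against a mean of -0.01 in brain. For both genes the agreement of the brain arrays is fixed by the scaling. Ifitm3 and Ifitm1 thus stood on opposite sides of 0 in liver in both arrays. With the replicate block Bst2, Gbp2, Ifih1, Ifit1, Ifit3, Ifnar1, Irf9, Jak1, Parp9 and Stat2 were called higher, and Dhx58, Isg20 and Slfn4 lower as well.

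**Figure D4:**
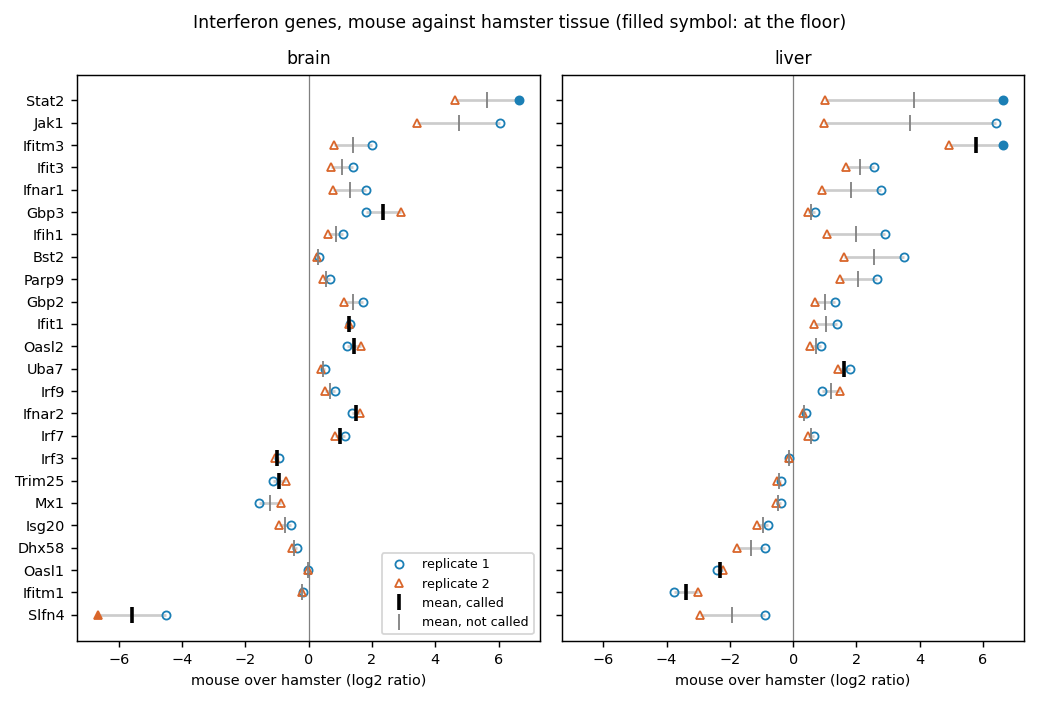
Log2 ratios of mouse over hamster in brain (left) and liver (right) for the interferon genes called in at least 1 fit, with a symbol for each array (filled at the floor or cap) and a bar for the mean (black where called without the replicate block). Stat2 and Jak1 are far to the right, and Ifitm3 and Ifitm1 lie at opposite ends in liver.

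The highest ratios of the list in brain belonged to Stat2 and Jak1, which were called only with the replicate block. Stat2 gave 6.64, at the cap, and 4.62 in brain, a mean of at least 5.63 (limma, adjusted p = 0.0904, and 0.00835 with the replicate block). In liver it gave 6.64, again at the cap, and 1.00, a mean of at least 3.82 (adjusted p = 0.169 and 0.0258). Jak1 gave 6.04 and 3.43 in brain and 6.42 and 0.99 in liver. The liver values of replicate 2 near 1 are set by the scaling when a replicate 1 array lies at or near the cap, so the distance between the arrays is no measure of their error.

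The difference of the tissues was tested in the same fit. Ifitm1 was higher in brain than in liver relative to hamster, by 3.18 ± 0.32 (limma, adjusted p = 0.0443), and Oasl1 by 2.30 ± 0.17 (adjusted p = 0.0352). When the arrays were scaled to a common spread the call for Ifitm1 was lost, at 3.36 (limma, adjusted p = 0.0603), and that for Oasl1 was kept, at 2.40 (adjusted p = 0.0496). Both were called with the replicate block. Over all genes 3.53% were called higher in brain and 2.54% higher in liver. By limma, 7 interferon genes were higher in liver at an unadjusted p under 0.05, a limit for which no share of all genes is given. No interferon gene was called higher in liver. With the replicate block 2 were, Ifitm3 at -4.37 or below (adjusted p = 0.0163, against 0.0722 without it) and Slfn4 (adjusted p = 0.0175 against 0.145). The Slfn4 difference was -3.65 or below. The replicate block called 4.84% and 3.97% of all genes. The median of this difference was -0.15 for the interferon genes and 0.08 for all genes.

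Markers of cell types were counted in the same fits. Of all genes, 10.1% were called higher and 5.91% lower in brain, and 2.35% and 2.26% in liver. With the replicate block the shares were 21.1% and 10.5% in brain, and 16.3% and 9.22% in liver. Of 10 measured markers of microglia and macrophages 1 was higher and 1 lower in brain, with a median of -0.67, and 0 were called in liver, with a median of -0.03 (limma). The replicate block gave 3 higher and 3 lower macrophage markers in brain, and 1 and 2 in liver. Of 6 markers of lymphocytes 1 was higher and 2 lower in brain, and 0 were called in liver. The replicate block gave 1 and 3 of them in brain, and 0 in liver. In brain 1 of 4 neuronal markers was higher, with a median of 1.74, and so were both astrocyte markers, with a median of 2.73. The replicate block gave 2 higher neuronal and 2 higher astrocyte markers there. In liver 2 of 4 hepatocyte markers were higher and 0 lower, with a median of 1.25. With the replicate block 2 of them were higher and 1 lower. Of 6 fibroblast markers 2 were higher and 0 lower in brain, and 0 higher and 1 lower in liver. The replicate block gave 3 and 0 of them in brain, and 1 and 2 in liver. The part of all these markers in the interferon results was not tested. In the hybrid panel 0 of the 10 macrophage markers were higher and 3 were lower, and 0 were called in each dye orientation alone. Of the 6 fibroblast markers 3 were higher and 2 lower there, and 0 and 2 in each orientation alone. Of all genes 19.5% were higher and 11.4% lower, and 6.08% and 3.26% in each orientation alone. Lymphocyte markers gave 1 higher and 0 lower, hepatocyte markers 0 and 1, neuronal 1 and 0, and astrocyte 0 and 0. Between lines 3 of the 6 fibroblast markers differed, beside 8.88% of all genes.

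Among the 73 other pathway genes 6 were higher and 4 lower in brain, and 5 higher and 1 lower in liver. The shares of all genes were 10.1% and 5.91% in brain, and 2.35% and 2.26% in liver. In brain Ciita, the master regulator of class II major histocompatibility genes, was highest at 4.45 ± 0.31, followed by the RNA receptor Tlr3 at 1.45, Daxx at 1.42, Znfx1 at 1.40 and Tor3a at 1.37. The lowest were Tap1, the partner of Tap2, at -2.35, and the nuclear body genes Sp110 at -1.83 and Sp100 at -0.80, with Trim14 at -0.82. In liver Iigp1, an immunity-related GTPase, was highest at 4.73 ± 0.16, followed by Lgals3bp at 1.55, Tlr9 at 1.46, Trim21 at 1.33 and Casp4 at 1.28, and Tdrd7 was lower at -0.96. The replicate block gave 12 higher and 4 lower genes in brain, and 18 and 5 in liver. Its shares of all genes were 21.1% and 10.5% in brain, and 16.3% and 9.22% in liver. Among the 4 lower in brain, Sp100 and Trim14 were replaced by Irf4 at -1.46 and Sting1 at -0.83 (limma, adjusted p = 0.0459 and 0.0486), which were named after their values were seen.

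Last, the species ratio in tissue was set beside the spread between lines. Across the 45 genes, the mean tissue ratio and the intraclass correlation had a Spearman rho of 0.27 and a Pearson r of 0.41, given as a description since genes are not independent replicates. Brain alone gave a rho of 0.38 and liver 0.18. Ifitm3 and Jak1, with the highest intraclass correlations, had mean ratios of 1.41 and 4.73 in brain. In liver these were at least 5.78 for Ifitm3 and 3.71 for Jak1. Of these only Ifitm3 in liver was called without the replicate block. Stat2 had the highest tissue mean and an intraclass correlation of 0.09, and Ifi35 and Oasl1 were called between lines with a tissue mean near 0 and below 0.

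**Figure D5:**
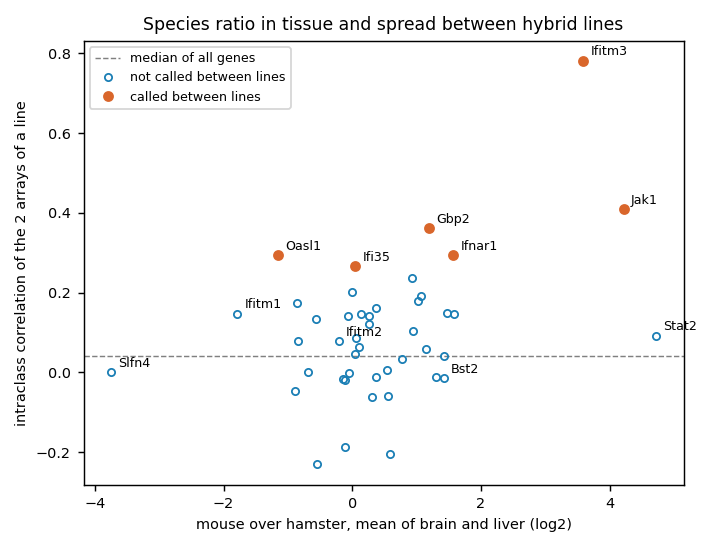
The horizontal axis gives the log2 ratio of mouse over hamster, averaged over brain and liver, and the vertical axis the intraclass correlation between the 2 arrays of a line, for the 45 interferon genes, with filled points for those called between lines. Ifitm3 stands alone at the top with 0.78, Stat2 lies at the far right with 0.09, and the dashed line marks the median of all genes at 0.04.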

How the data were processed

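The table holds log10 ratios of Cy5 over Cy3 as deposited by the authors, per the labels. How the scans were read and normalised is not stated in the sources used here. No value column was left without a sample (0 columns). Ratios were turned to hybrid over A23 or mouse over hamster and converted to log2. In 20720 features (99.3%) the 4 deposited tissue ratios were centred on a median of 1 (tolerance 1e-06), which shifts the dye orientations of a tissue by equal and opposite amounts. Floors aside, this cancels in a tissue's mean over exchanged dyes, but it can widen or narrow the spread between its arrays. The replicate block takes it up. Gene names came from the probe table (17786 features with 1 symbol, 16 with several, 3066 with none), and features of a gene were averaged.

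Tests used limma 3.58.1 in R 4.3.3, fitted on all genes. They were checked on simulated data that held neither the joint scaling of the tissue ratios, nor the floor, nor the spread of A23. Pearson correlations between genes and the permutation tests used numpy 2.4.6, and Spearman correlations also used scipy 1.17.1. The panel test used 1 mean per line against 0, and so leaves out the spread of A23 itself. The arrays' number limits the precision.

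The members and lists were chosen with earlier results of these data known. Named are Ifitm3, Stat2, and the called genes with the largest values in each comparison (up to 10 higher and 10 lower in the panel, 12 by F between lines, 8 each way in tissues). Of the other pathway genes up to 5 each way and 6 by F are named, and the 8 genes most like Ifitm3 and Stat2. Other genes were named after their values were seen. Per the labels the replicate number is the dye orientation. The deviations of brain and liver arrays of one number correlated at r = 0.44, a value that the joint centring itself affects, so the pairing rests on the labels alone. The alternatives were other replicate blocks, leaving out arrays or lines, exact zeros as missing, scaled arrays, single features, no size limit, and the 28 matched lines, whose second array correlated best with their own first array after the orientation means were removed.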

Additional observations from a re-analysis of the deposited data

Results flagged for a closer look

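Several interferon genes differed between groups under the same contrast. Ifitm1 and Oasl1 had a mouse over hamster ratio that was higher in brain than in liver, by 3.18 and 2.30 on the log2 scale. Of the other pathway genes, Ciita was higher in brain by 3.66, and Tap1 and Iigp1 were higher in liver, with differences of -3.65 ± 0.43 (SE; limma, adjusted p = 0.0469) and -4.65 ± 0.22 (adjusted p = 0.0324). The labels give 2 arrays for each tissue, and no array could be left out without losing these calls. The call for Ifitm1 was also lost when the arrays were scaled (3.36; limma, adjusted p = 0.0603).

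Differences between the hybrid lines were the other kind. The intraclass correlations of the arrays of a line were 0.781 for Ifitm3, 0.410 for Jak1, 0.362 for Gbp2, 0.294 for Oasl1, 0.293 for Ifnar1 and 0.266 for Ifi35. No group held enough samples for a test of single outlying arrays.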

How the results depend on the processing

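All 17 panel calls were the same with line as a random replicate block (9 higher, 8 lower), with exact zeros as missing, by single features, and without line 42 or line 23. Ddx58 was lost when the arrays were scaled. Leaving out a replicate gave 8 to 22 higher and 8 to 19 lower genes, no size limit 15 and 13, and the matched lines 4 and 4, where fewer lines were used. Means reversed between replicates for Ddx58 (-0.69 to 0.27), Ifih1 (-0.22 to 0.71), Ifitm1 (-1.62 to 0.30), Ifitm2 (-1.38 to 0.81), Ifitm5 (-0.47 to 0.039) and Stat2 (-0.43 to 0.51), and the cause was not tested. Between lines 2 genes, Ifitm3 and Jak1, were called with no replicate block and 12 in the matched lines, which were chosen for the agreement of their arrays. In brain the replicate block gave 11 higher genes and scaling 3; in liver the replicate block gave 12 higher and 5 lower; for brain minus liver it gave 2 lower, and scaling 1 higher, without Ifitm1. Leaving out a tissue array left 1 array for that tissue, and all calls in each tissue comparison were lost. Of the neighbour pairs 6 were called without replicate 2 (3 positive) and 6 without replicate 1 (5 positive), 0 across arrays, 7 without the 2 farthest lines, and 2 without line 42 or without line 23, the latter chosen after the data were seen. For single genes, 287 values kept direction and side of the threshold, 81 lost and 5 gained the call, and 6 reversed. Signal over background is unknown, so the depth behind a ratio could not be weighed.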

Other observations

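Gbp2 was added, after its values were seen, to the genes for which the most alike of all genes were sought. Over the 99 line means these were Selenof, a selenoprotein of the endoplasmic reticulum (r = 0.56, and 0.33 across arrays), and Ddah1, which breaks down methylated arginine (0.54 and 0.21). Lrrc8a, a subunit of volume-regulated anion channels, followed with 0.52 and 0.35, and Pot1a, a telomere-binding protein, with 0.51 and 0.28. As background, Selenof and Ddah1 lie on the same mouse chromosome as Gbp2, while Lrrc8a and Pot1a do not.

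Across arrays, the highest mean correlations among all 990 pairs of interferon genes were 0.29 for Irf1 with Ifitm5, 0.24 for Irf1 with Oas3, and 0.23 for Ifitm5 with Ifit1. None of these pairs were neighbours, and over line means the same pairs had r = -0.02, 0.10 and 0.17. The lowest of the 990 was -0.25, and these pairs were not tested. The intraclass correlation was -0.01 for Irf1, -0.19 for Ifitm5, -0.23 for Oas3 and 0.06 for Ifit1. The arrays of a line thus showed almost no agreement for these genes, and no link between them can be read from the values.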
